A study of Mus musculus with 8 samples.

Results

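Interleukin 6 family cytokines are secreted proteins, most of which signal through gp130, the shared receptor chain encoded by Il6st. The set described here holds 10 of the 25509 genes in the deposited table, chosen by symbol with earlier results of these data known. They are the cytokine genes Il6, Il11, Lif and Clcf1, the receptor genes Il6st, Lifr, Osmr, Il6ra and Il11ra1, and the feedback inhibitor gene Socs3. Each symbol matched 1 row, and all 10 passed the low-count filter, which kept 14524 genes.

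RNA was sequenced from 4 libraries of CD249+ and 4 libraries of CD249- lung fibroblasts, 1 pair from each of the wild-type C57Bl6/J mice numbered 2, 7, 8 and 10. Cells of digested lungs without the surface proteins CD45 (leukocytes), CD326 (epithelium) and CD31 (endothelium) were sorted on CD249, the surface aminopeptidase encoded by Enpep, and both fractions of a lung were collected in equal cell numbers. The deposited columns of the CD249+ libraries carry the word LIF, which the labels do not expand. The labels list no cytokine treatment in any sample, and the word is not read here as a treatment. Neither age nor sex of the mice is stated, and the labels do not give a promoter, transgene or cell line.

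In this family an interleukin-specific chain, IL-6 receptor alpha (Il6ra) or IL-11 receptor alpha (Il11ra1), captures its cytokine and joins it to a gp130 pair. LIF instead bridges gp130 and LIFR, and oncostatin M in the mouse signals mainly through gp130 with OSMR. Receptor-bound JAK kinases then phosphorylate STAT3, and STAT3 induces SOCS3, which binds gp130 and shuts the signal off. In lung, fibroblasts are known as a source of IL-6, LIF and IL-11.

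Totals ran from 23011383 to 31906414 counts per library, with 15452 to 16515 genes detected. Enpep averaged 241 ± 64.8 CPM over CD249+ libraries, against 8.98 ± 5.62 CPM over CD249- libraries (SD, n = 4 each), where CPM is counts relative to a library total scaled by TMM. Summed over 12 alveolar fibroblast markers, the level was 6488 to 12799 CPM in CD249+ libraries and 1130 to 1658 CPM in CD249- libraries, 11 of the 12 rose and 1 fell. Pericyte and smooth muscle markers rose as well (10 of 12, none fell, median log2 fold change 1.86), with sums of 1597 to 2383 CPM in CD249+ libraries and 343 to 930.2 CPM in CD249- libraries. Of 12 adventitial fibroblast markers 3 rose and 4 fell, of 10 mesothelial markers 1 rose and 5 fell, and of 9 platelet and red cell markers 5 fell and none rose. Their part in the members' values was not tested. Both fractions also held transcripts of the gated-out types. Pecam1, the CD31 gene, fell to 611 ± 239 CPM in CD249+ libraries, against 1667 ± 248 CPM in CD249- libraries (edgeR adjusted p = 0.00170). Ptprc, the CD45 gene, had 63.1 ± 22.8 CPM in CD249+ libraries and 123 ± 58.0 CPM in CD249- libraries (edgeR adjusted p = 0.0635 without and 0.0126 with the mouse as a block), and Epcam, the CD326 gene, had 7.98 ± 4.97 CPM in CD249+ libraries and 7.46 ± 1.62 CPM in CD249- libraries (edgeR adjusted p = 0.894). Of 10 epithelial markers, however, 3 rose and 1 fell in edgeR, while DESeq2 called 3 of the 10 and limma-voom 2. The surfactant genes Sftpc (log2 fold change 3.59), Sftpb (3.77) and Sftpa1 (3.56) rose, with edgeR adjusted p of 0.0313, 0.0264 and 0.0297. Hopx fell (-1.31, edgeR adjusted p = 0.000827). These 4 genes were named after their values were seen. The epithelial sum was 627, 717, 1198 and 10309 CPM in CD249+ libraries of mice 2, 7, 8 and 10, against 487, 383, 427 and 1054 CPM in CD249- libraries, so that mouse 10 was highest in both fractions. The 12 endothelial markers summed to 4019 to 7554 CPM in CD249+ libraries and 12461 to 16752 CPM in CD249- libraries, all 12 fell, and none was at 0. Their median log2 fold change was -1.46. Of 12 leukocyte markers tested edgeR called 0 (with 3 at an unadjusted p under 0.05, 3 called by DESeq2 and 0 by limma-voom), and with the mouse as a block 6 of them fell. Their sum was 1097 to 3354 CPM in CD249+ libraries and 1320 to 2442 CPM in CD249- libraries. Lyz2 alone made up most of the sum in every library. It had 1360, 912, 1283 and 3147 CPM in CD249+ libraries of mice 2, 7, 8 and 10. In CD249- libraries it had 1124, 1361, 1835 and 1203 CPM. In bulk RNA, fewer cells of a type and less RNA per cell cannot be told apart.

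Of the 10 members 4 rose in CD249+ cells (Lif, Osmr, Il6ra and Il11ra1), 2 fell (Clcf1 and Lifr) and 4 did not pass (Il6, Il11, Il6st and Socs3), at an adjusted p under 0.05 in edgeR's quasi-likelihood test over all genes. Over all 14524 genes the same test called 30.8%, with 16.9% higher and 13.9% lower in CD249+ cells. With the mouse as a block, which pairs the fractions of 1 lung, Il6 joined the genes that rose and Il6st those that fell, making 5 higher and 3 lower, where 36.5% of all genes were called, 19.3% higher and 17.1% lower. The libraries of the fractions did not overlap for 7 members (33.6% of all genes tested), and 9 members differed in 1 direction in every mouse (53.0% of all genes tested). The median log2 fold change of the members was 1.02, beside -0.02 over all genes. With library size as the only scaling, 2106 genes were higher and 2689 lower, against 2455 and 2013 with TMM, and all 6 members kept their call.

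**Figure D1:**
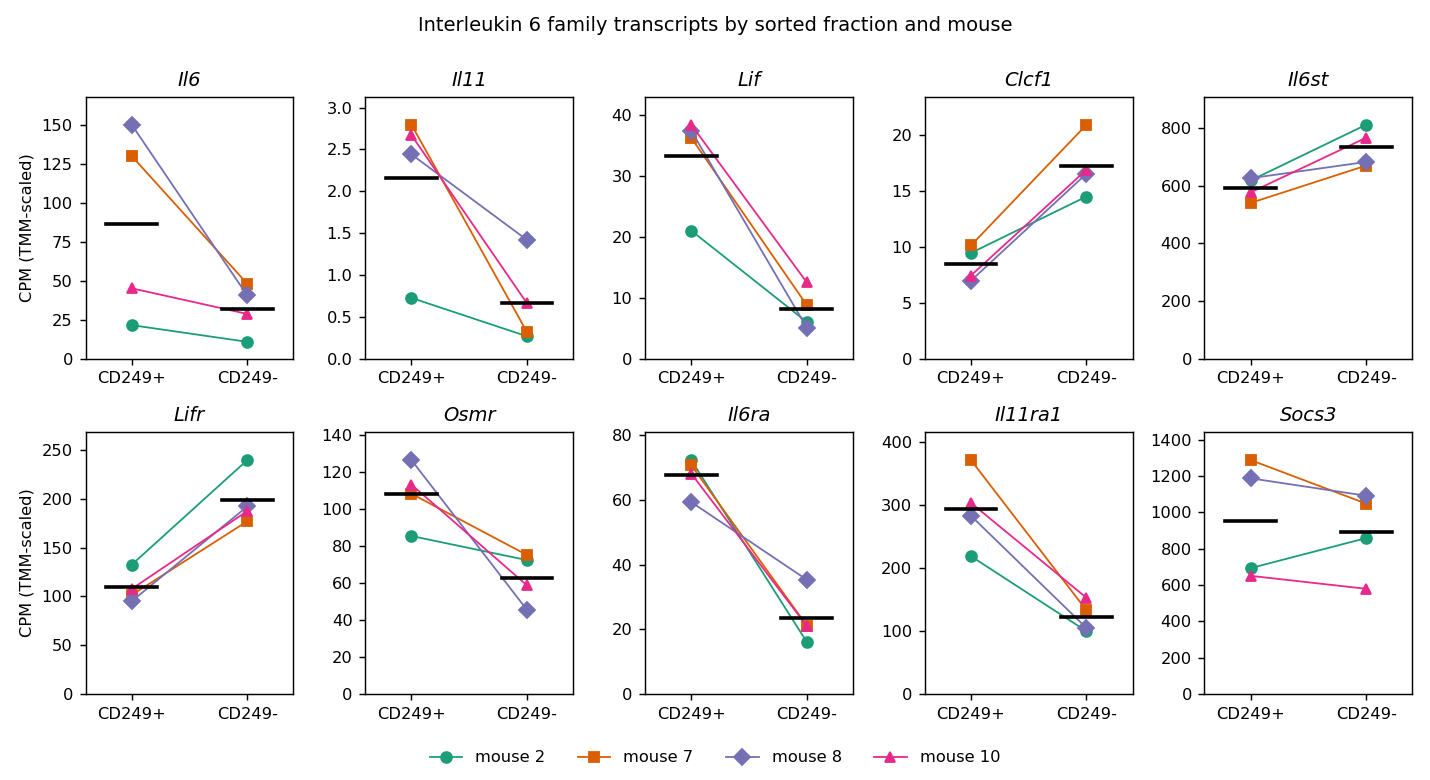
Each panel shows 1 gene, with CPM scaled by TMM on the vertical axis and the fraction on the horizontal axis. Points are libraries, lines join the fractions of 1 mouse and black bars are means of 4 libraries. Lif, Osmr, Il6ra and Il11ra1 libraries of CD249+ cells all lie above those of CD249- cells, while Il6, Il11 and Socs3 overlap.

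The promoters of the 3 cytokine genes with higher levels in CD249+ libraries of every mouse, and that of the feedback gene Socs3, are given as the 250 bases before the start annotated by RefSeq, 5′ to 3′ on the strand of the gene (GRCm38.p6). Capitals mark matches, on either strand, to 3 motifs: TGANTCA for AP-1, TTGCNNAA for C/EBP and TTCNNNGAA for STAT. Il11 has 2 RefSeq starts, and the window printed is the one with the AP-1 match. Its other window (chr7:4782808-4783107) held 0 matches to each of the 3 motifs.
Il6, chr5:30012864-30013113, plus strand: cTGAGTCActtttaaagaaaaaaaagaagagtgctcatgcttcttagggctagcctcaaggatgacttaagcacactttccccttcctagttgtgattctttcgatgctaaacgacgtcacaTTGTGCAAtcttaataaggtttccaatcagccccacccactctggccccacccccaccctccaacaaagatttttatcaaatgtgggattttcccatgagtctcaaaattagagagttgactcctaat
Il11, chr7:4778142-4778391, minus strand: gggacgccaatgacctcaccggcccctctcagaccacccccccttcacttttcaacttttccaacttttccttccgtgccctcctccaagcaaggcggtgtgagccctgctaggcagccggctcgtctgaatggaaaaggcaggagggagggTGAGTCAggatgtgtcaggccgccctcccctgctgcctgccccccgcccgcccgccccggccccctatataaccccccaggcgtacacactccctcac
Lif, chr11:4257318-4257567, plus strand: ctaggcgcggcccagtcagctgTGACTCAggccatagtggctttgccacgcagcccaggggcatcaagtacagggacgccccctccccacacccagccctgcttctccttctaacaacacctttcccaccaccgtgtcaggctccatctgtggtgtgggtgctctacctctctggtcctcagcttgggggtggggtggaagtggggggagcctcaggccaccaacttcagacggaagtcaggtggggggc
Socs3, chr11:117969367-117969616, minus strand: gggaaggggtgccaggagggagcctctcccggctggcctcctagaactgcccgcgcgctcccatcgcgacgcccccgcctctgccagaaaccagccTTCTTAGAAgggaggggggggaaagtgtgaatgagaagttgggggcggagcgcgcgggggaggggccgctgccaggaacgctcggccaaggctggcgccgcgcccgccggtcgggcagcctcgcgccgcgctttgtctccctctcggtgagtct

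An AP-1 match stood at 249 bases before the start in Il6, at 98 in the printed window of Il11 and at 228 in Lif. Distances are counted to the first base of the match. AP-1 is the dimer of Fos and Jun proteins. The Il6 window also held a C/EBP match, and the Socs3 window held the STAT match 154 bases before the start. RefSeq windows of 300 bases (250 before and 50 after a start) were found for 9 of the 10 members, 12 windows in all. Clcf1, the cytokine gene that fell, had no window and was not searched. In the windows found, AP-1 matched in Il6, Lif, 1 of 2 windows of Il11 and Osmr, where the match began 4 bases after the start. STAT matched only in Socs3. Il6ra and Il11ra1, which rose, held no AP-1 match, nor did Il6st, Lifr and Socs3. Of 32817 windows of all genes, 7.81% held the AP-1 letters, 10.8% the C/EBP letters and 8.29% the STAT letters. A match describes the letters and is no measurement of binding.

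Lif, the gene of leukaemia inhibitory factor (ENSMUSG00000034394.14, chromosome 11, 4257557 to 4272514, plus strand, GRCm38), was the cytokine gene that rose. CD249+ cells of mice 2, 7, 8 and 10 had 21.0, 36.3, 37.5 and 38.5 CPM of Lif, against 6.01, 8.79, 5.09 and 12.5 CPM in CD249- cells. Every CD249+ library lay above every CD249- library, with mouse 2 lowest among the CD249+ libraries. The difference was 4.10-fold (log2 fold change 2.04 with an SE of 0.31, edgeR adjusted p = 0.000817). The ratio within a mouse was smallest in mouse 10 (log2 1.62) and largest in mouse 8 (log2 2.88).

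Il6 (ENSMUSG00000025746.11, chromosome 5, 30013114 to 30019981, plus strand), the founding cytokine of the family, varied widely between mice in both fractions. CD249+ cells of mice 2, 7, 8 and 10 had 21.5, 130.3, 150.4 and 45.2 CPM of Il6, against 10.7, 48.1, 40.5 and 28.7 CPM in CD249- cells. Within each mouse the CD249+ value was the higher one, by log2 ratios of 1.00, 1.44, 1.89 and 0.66, but the fractions overlapped across mice. The log2 fold change was 1.44 (SE 0.61) and did not pass the group-only test (edgeR adjusted p = 0.101). With the mouse as a block it was 1.26 (SE 0.19) and passed (edgeR adjusted p = 0.00103). Il6 was also called without both libraries of mouse 2 (1.497, edgeR adjusted p = 0.0244) or without its CD249+ library alone (1.78, edgeR adjusted p = 0.0243). The other 10 of the 12 fits that left out a mouse or a library did not call Il6 (edgeR adjusted p up to 0.295). DESeq2 and limma-voom did not call it either (adjusted p = 0.102 and 0.186). None of these fits paired the fractions of a mouse, so they keep the spread between mice. The block fit was not repeated with libraries left out.

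Il11 (ENSMUSG00000004371.14, chromosome 7, 4772373 to 4782859, minus strand) encodes interleukin 11, a cytokine that fibroblasts make, and was the least abundant member. The deposited counts, rounded, were 22, 79, 69 and 78 in CD249+ libraries of mice 2, 7, 8 and 10, against 8, 9, 34 and 22 in CD249- libraries. In CPM these were 0.725, 2.80, 2.44 and 2.67 in CD249+ libraries, against 0.266, 0.315, 1.42 and 0.660 in CD249- libraries. The CD249+ library of mouse 2 lay below the CD249- library of mouse 8, so the fractions overlapped, although each mouse had the higher value in CD249+ cells. The log2 fold change of 1.70 (SE 0.70) did not pass in the group-only test (edgeR adjusted p = 0.0962) or with the mouse as a block (edgeR adjusted p = 0.0732). It passed in DESeq2 (adjusted p = 0.0414) and in edgeR without the CD249- library of mouse 8 (log2 fold change 2.37, adjusted p = 0.0402).

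Clcf1 (ENSMUSG00000040663.8, chromosome 19, 4214238 to 4223490, plus strand), whose product is a ligand of the ciliary neurotrophic factor receptor, was the cytokine gene that fell. Its levels were 9.45, 10.1, 6.97 and 7.43 CPM in the CD249+ libraries of mice 2, 7, 8 and 10, against 14.5, 20.9, 16.6 and 16.9 CPM in CD249- cells. The libraries did not overlap, and the log2 fold change was -1.02 (SE 0.19, edgeR adjusted p = 0.00298). An annotated protein-coding gene on the same strand shares 8.2% of the Clcf1 exon bases, and reads there cannot be assigned to either gene by position.

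Among the receptor genes the cytokine-specific alpha chains rose. Il6ra (ENSMUSG00000027947.11, chromosome 3, 89864059 to 89913196, minus strand) gave 72.3, 70.8, 59.3 and 68.2 CPM in the CD249+ libraries of mice 2, 7, 8 and 10, against 16.1, 21.2, 35.3 and 21.1 CPM in CD249- cells. The CD249+ libraries lay close together and all above the CD249- libraries, and the log2 ratio was smallest in mouse 8, at 0.75. The fitted difference was 2.89-fold (log2 fold change 1.53, SE 0.21, edgeR adjusted p = 0.000560). Leukocytes also make this chain. The leukocyte markers given above had a median log2 fold change of -0.80 with 0 of 12 called by edgeR (3 at an unadjusted p under 0.05, 3 called by DESeq2, 0 by limma-voom), and their part in the value of Il6ra was not tested.

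Il11ra1 (ENSMUSG00000073889.10, chromosome 4, 41699989 to 41769474, plus strand), the IL-11-binding chain, had 219, 371, 283 and 303 CPM in CD249+ cells, against 99.5, 133, 105 and 153 CPM in CD249- cells of the same mice. No libraries overlapped, and the difference was 2.40-fold (log2 fold change 1.26, SE 0.19, edgeR adjusted p = 0.000728). The mouse genome holds near-identical copies of this gene. A Gm13305 transcript matched an Il11ra1 transcript at 98.9% of 1953 aligned bases and an Il11ra2 transcript at 99.0% of 1299. Expected counts divide reads among such copies, so the split is uncertain. The table gave the copies at most 79.0 counts for Il11ra2 and 55.6 for Gm13305 in any library, against 2508 to 10489 for Il11ra1. With the 3 rows summed, a setting chosen after the data were seen, Il11ra1 remained called.

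The signalling chains moved apart. Osmr (ENSMUSG00000022146.12, chromosome 15, 6813577 to 6874969, minus strand), the oncostatin M chain, had 85.5, 108, 127 and 113 CPM in the CD249+ libraries of mice 2, 7, 8 and 10, against 72.4, 75.2, 45.5 and 58.7 CPM in CD249- cells. Its log2 fold change was 0.78 (SE 0.17, edgeR adjusted p = 0.00716). The libraries did not overlap, but in mouse 2 the log2 ratio was only 0.24, and without both libraries of mouse 10 the call was lost (0.73, edgeR adjusted p = 0.0514).

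Lifr (ENSMUSG00000054263.11, chromosome 15, 7090614 to 7197489, plus strand), the LIF-binding chain, fell. CD249+ cells had 133, 101, 95.1 and 108 CPM of Lifr, against 239.9, 177, 192 and 188 CPM in CD249- cells. The fractions did not overlap and the 4 within-mouse log2 ratios lay close together, between -1.02 and -0.80. The fitted log2 fold change was -0.87 (SE 0.13, edgeR adjusted p = 0.000993).

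Il6st (ENSMUSG00000021756.12, chromosome 13, 112464070 to 112510086, plus strand), the gp130 gene, had 618, 539.7, 625 and 576 CPM in CD249+ cells, against 811, 669, 682 and 766 CPM in CD249- cells. The CD249+ libraries lay below all CD249- libraries by a small margin, and the log2 fold change of -0.31 (SE 0.11) did not pass (edgeR adjusted p = 0.0537). It passed with the mouse as a block (-0.31, SE 0.075, edgeR adjusted p = 0.0128) and with library size as the only scaling (-0.41, edgeR adjusted p = 0.0197). It also passed in DESeq2 (adjusted p = 0.0116) and in limma-voom (adjusted p = 0.0479). Only these 4 of the 22 alternatives called Il6st. Of the 12 group-only fits that left out a mouse or a library 0 called it (edgeR adjusted p = 0.0582 to 0.220). Among the alternatives only the block fit paired the fractions of a mouse, and it was not repeated with libraries left out. Endothelial cells also make LIFR and gp130, and the endothelial markers fell in the same libraries with a median of -1.46. Their part in the values of Lifr and Il6st was not tested.

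Socs3 (ENSMUSG00000053113.3, chromosome 11, 117966079 to 117970047, minus strand) differed between mice and not detectably between fractions. CD249+ cells of mice 2, 7, 8 and 10 had 693, 1289, 1188 and 651 CPM, against 859, 1049, 1092 and 579 CPM in CD249- cells. Both libraries of mice 7 and 8 were higher than all libraries of mice 2 and 10. Its log2 fold change was 0.09 (SE 0.27, edgeR adjusted p = 0.826) and took either sign among the alternative settings, between -0.10 and 0.24.

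**Figure D2:**
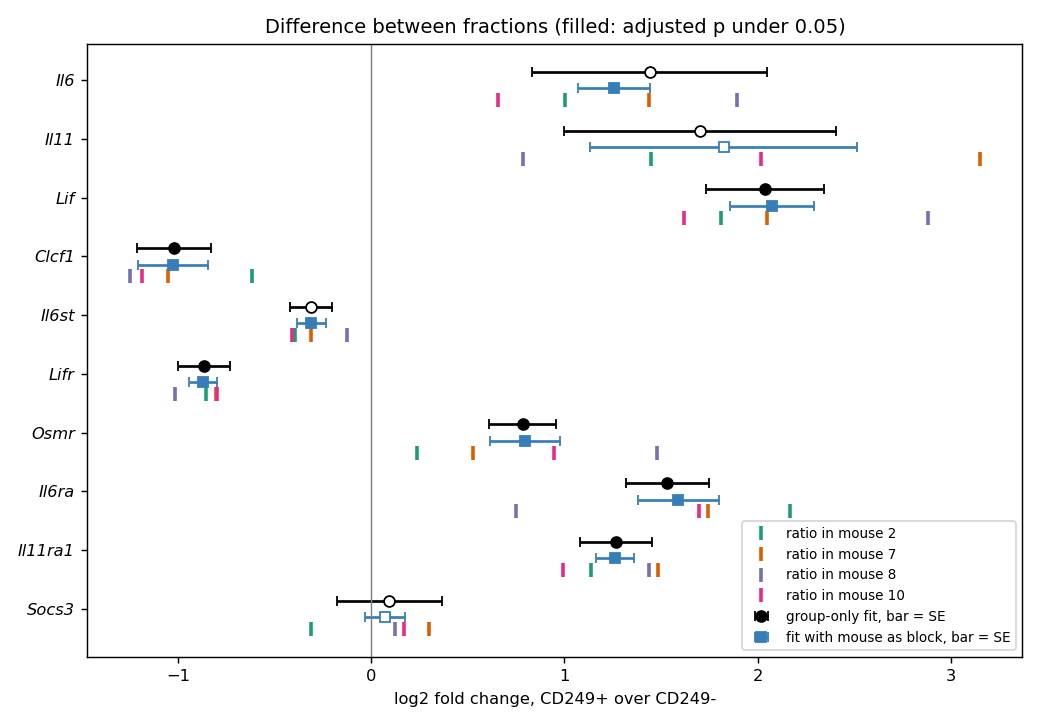
The horizontal axis is the log2 fold change of CD249+ over CD249- cells for each gene. Circles are the group-only fit and squares the fit with the mouse as a block, bars are 1 SE, filled symbols have an adjusted p under 0.05, and coloured ticks are the ratios within each of the 4 mice. Il6 and Il6st are filled only with the block, and Socs3 lies at 0.09.

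Levels of different genes were compared per kb of annotated exon (GENCODE M21). Socs3 was the most abundant member in both fractions, at 330.4 ± 114 CPM per kb in CD249+ cells and 309.5 ± 80.8 CPM per kb in CD249- cells (SD, n = 4 each). In CD249+ cells it was followed by Il11ra1 at 65.8 ± 14.1, Il6st at 53.1 ± 3.58 and Il6 at 35.8 ± 26.0 CPM per kb. Then came Lifr (10.1 ± 1.52), Osmr (8.95 ± 1.41), Il6ra (7.83 ± 0.671) and Lif (7.66 ± 1.89 CPM per kb). From Il11ra1 to Lif each range in CD249+ cells overlapped the next. Clcf1 (2.23 ± 0.402) and Il11 (1.04 ± 0.465 CPM per kb) were lowest and separate from each other.

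In CD249- cells Il6st came next after Socs3, at 66.0 ± 6.12 CPM per kb, and its range lay above that of Il11ra1 at 27.4 ± 5.57. Then came Lifr (18.5 ± 2.58), Il6 (13.2 ± 6.71), Osmr (5.20 ± 1.13), Clcf1 (4.53 ± 0.707), Il6ra (2.71 ± 0.959) and Lif (1.86 ± 0.769 CPM per kb), and from Il11ra1 to Lif each range overlapped the next. Il11 was lowest at 0.319 ± 0.256 CPM per kb. Exon lengths are those of all annotated transcripts merged, so a gene with long rarely used exons reads low on this scale. The merged length of Il11ra1 is 4471 bases, while an annotated transcript of it has 1953. The order of genes could differ with other lengths, whereas the comparison of the fractions for a single gene would not.

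**Figure D3:**
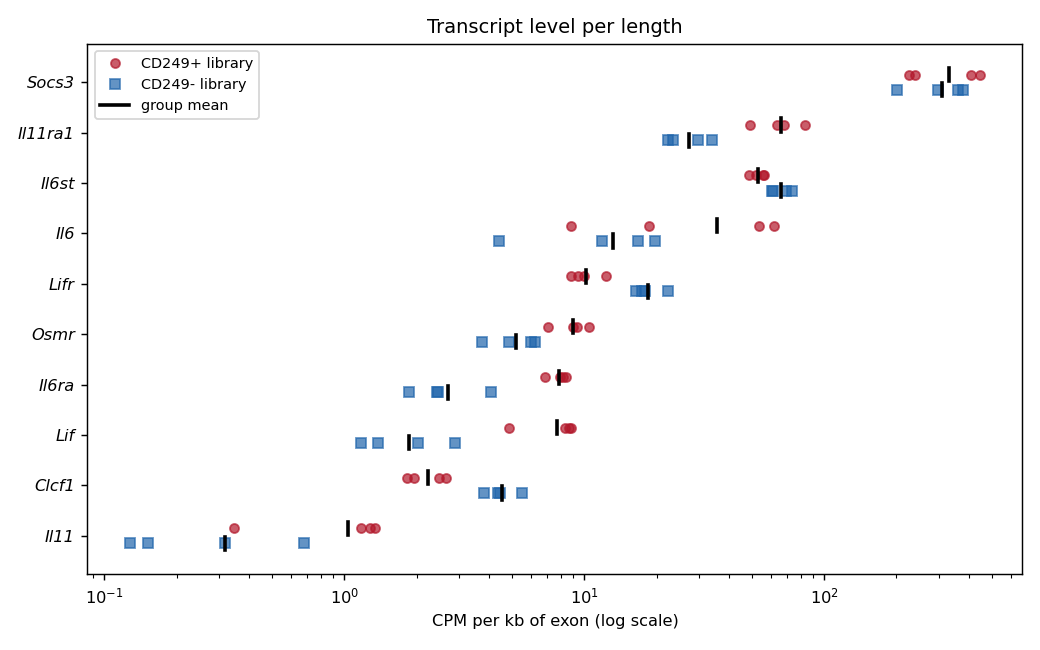
Transcript level in CPM per kb of exon on a log axis, with circles for CD249+ and squares for CD249- libraries and black ticks for the means of 4. Socs3 stands apart at the top in both fractions. On merged exon lengths Il11ra1 overlaps Il6st in CD249+ cells, at means of 65.8 and 53.1 CPM per kb, and lies below it in CD249- cells. The order of genes depends on the lengths used.

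Ratios of 2 members within a library do not depend on how libraries were scaled. Osmr over Lifr, per kb, was 0.574, 0.950, 1.18 and 0.936 in CD249+ cells of mice 2, 7, 8 and 10, against 0.269, 0.378, 0.210 and 0.279 in CD249- cells. On merged exon lengths, transcripts of both chains were thus near parity in CD249+ cells of mice 7, 8 and 10, while Lifr exceeded Osmr in every CD249- library. The size of each ratio, though not its difference between fractions, depends on these lengths. Il11ra1 over Il6st was 0.879 to 1.71 in CD249+ libraries and 0.3045 to 0.495 in CD249- libraries, and Il6ra over Il6st was 0.122 to 0.168 in CD249+ libraries and 0.0255 to 0.0665 in CD249- libraries. The ligand to receptor ratio of Lif over Lifr was 0.393 to 0.976 in CD249+ libraries and 0.0621 to 0.166 in CD249- libraries. In contrast, Il6 over Il6ra ranged over 1.06 to 9.02 in CD249+ libraries and 2.37 to 8.09 in CD249- libraries and overlapped fully. These ratios describe the libraries and were not tested.

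**Figure D4:**
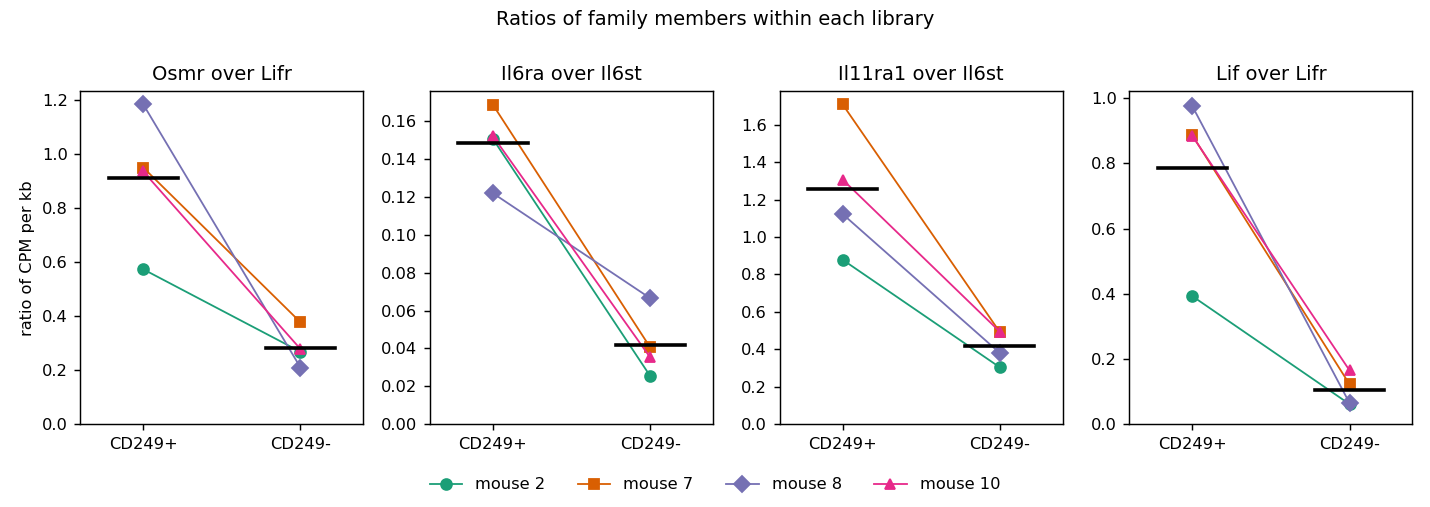
Each panel shows the ratio of the CPM per kb of 2 genes in 1 library, with lines joining the fractions of 1 mouse and black bars for the means of 4 libraries. All 4 ratios are higher in CD249+ than in CD249- libraries without overlap, as for Osmr over Lifr with a mean of 0.911 in CD249+ and 0.284 in CD249- cells.

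Il6 and Socs3 were high in mice 7 and 8, and other transcripts differed between the mice in the same way. A list of 28 immediate early and dissociation genes, which cells switch on soon after stress or digestion, summed to 19389, 38351, 32861 and 23816 CPM in the CD249+ libraries of mice 2, 7, 8 and 10, against 15471, 21276, 20541 and 15947 CPM in CD249- cells. In each mouse the CD249+ sum was the higher one, and in each fraction mice 7 and 8 were above mice 2 and 10. In the group-only fit 10 of the 28 rose, 2 fell and 16 did not pass, with a median log2 fold change of 0.61. With the mouse as a block 18 rose and 3 fell. None of the 28 is a member of the family, and their part in the values of Il6, Lif and Socs3 was not tested. Haemoglobin transcripts split the mice likewise. In CD249+ libraries Hbb-bs had 3.72, 37.3, 113 and 3.39 CPM in mice 2, 7, 8 and 10, and in CD249- libraries 7.44, 159.7, 162 and 3.24 CPM.

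Fitted in mice 7 and 8 alone, 7 members were called, the 6 of the whole set and Il6 (log2 fold change 1.69, edgeR adjusted p = 0.000705), beside 20.5% of all genes. In mice 2 and 10 alone only Il6ra was called, beside 4.55% of all genes, and Il6 gave 0.76 (edgeR adjusted p = 0.485). The other 5 called members kept their direction there, with edgeR adjusted p between 0.0917 for Lifr and 0.161 for Osmr. These pairs follow the levels of Il6 and Socs3 given above, so the choice of mice itself narrows the spread of Il6 within a fraction. Its SE was 0.16 in mice 7 and 8, against 0.61 over all mice. The small p of Il6 in that pair is therefore no separate support. Whether the effects differ between these pairs of mice was not tested.

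**Figure D5:**
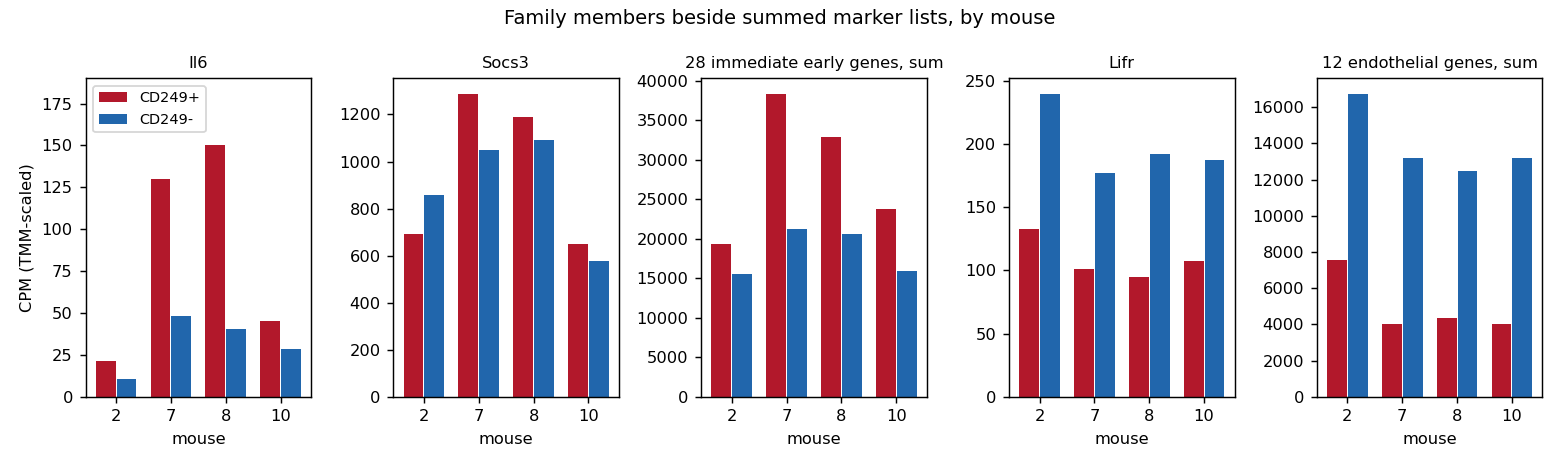
Bars are CPM scaled by TMM in single libraries, by mouse, for Il6, Socs3, the sum of 28 immediate early genes, Lifr and the sum of 12 endothelial genes. Il6, Socs3 and the immediate early sum are highest in mice 7 and 8, while Lifr and the endothelial sum are lower in the CD249+ library of every mouse and highest in mouse 2.

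Other ligands of the family were at low levels in both fractions. Of 8 listed genes, 4 passed the low-count filter, 1 rose and 1 fell, with a median log2 fold change of -0.03. Ctf1, the cardiotrophin 1 gene, rose to 4.14 ± 1.54 CPM in the CD249+ fraction, against 0.617 ± 0.188 CPM in CD249- libraries (mean ± SD of 4, log2 fold change 2.74, SE 0.48, edgeR adjusted p = 0.00195). Ebi3, which encodes a subunit of interleukin 27, fell to 0.640 ± 0.369 CPM in CD249+ libraries, against 2.20 ± 0.672 CPM in CD249- libraries. Its log2 fold change was -1.78 (edgeR adjusted p = 0.0461 without and 0.0438 with the mouse as a block). The group-only call of Ebi3 was lost when any library or mouse was left out (edgeR adjusted p = 0.05004 to 0.153). Osm, the gene of oncostatin M, had 9.08 ± 3.67 CPM in the CD249+ fraction, against 15.2 ± 4.64 CPM in CD249- cells and passed only with the mouse as a block (log2 fold change -0.74, edgeR adjusted p = 0.116 without and 0.0378 with the block). Among 5 other receptor genes 4 passed the filter and 1 rose. It was Cntfr, the receptor chain that binds the CLCF1 complex, at 21.5 ± 9.29 CPM in the CD249+ fraction, against 4.54 ± 1.46 CPM in CD249- libraries (mean ± SD of 4, log2 fold change 2.24, SE 0.33, edgeR adjusted p = 0.000800). Il27ra (-0.92), Il11ra2 (0.66) and Il12rb2 (-0.17) did not pass.

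The intracellular relay was called about as often as all genes (30.8%). Of 12 transducer genes such as the JAK and STAT genes, 1 rose, 2 fell and 9 were not called (median log2 fold change -0.08). Jak3, a kinase of leukocyte cytokine receptors, fell to 92.0 ± 25.4 CPM in the CD249+ fraction, against 233 ± 25.1 CPM in CD249- libraries (mean ± SD of 4, log2 fold change -1.34, edgeR adjusted p = 0.000397). Stat3, the main STAT of gp130, had 405 ± 49.5 CPM in the CD249+ fraction, against 361 ± 24.2 CPM in CD249- cells and did not pass (log2 fold change 0.16, edgeR adjusted p = 0.303), and Jak1, the principal gp130 kinase, gave -0.17 (edgeR adjusted p = 0.222). Small changes of Stat5b (0.34) and Stat2 (-0.50) were called (edgeR adjusted p = 0.0248 and 0.0430). With the mouse as a block they were also called (edgeR adjusted p = 0.00981 and 0.00515). The group-only calls were lost in 7 and 9 of the 12 fits that left out a mouse or a library.

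Among 14 genes of feedback inhibition there were 1 that rose, 3 that fell and 10 without a call (median -0.10), also a share near that of all genes. Socs2, an inhibitor of growth hormone signalling, rose to 122 ± 23.8 CPM in the CD249+ fraction, against 46.0 ± 4.61 CPM in CD249- libraries (mean ± SD of 4, log2 fold change 1.41, SE 0.14, edgeR adjusted p = 8.88e-05). Cish, a STAT5-induced inhibitor, fell by 0.99 on the log2 scale (edgeR adjusted p = 0.0136), and the phosphatase gene Ptpn1 by 0.37 (edgeR adjusted p = 0.0130). In group-only fits Cish was not called without mouse 7 or mouse 8 (edgeR adjusted p = 0.0648 and 0.0575), and Ptpn1 not without mouse 8 (edgeR adjusted p = 0.0938). With the mouse as a block and all mice, Cish and Ptpn1 were called (edgeR adjusted p = 2.21e-05 and 0.00970). The log2 ratios of Cish within a mouse lay between -1.14 and -0.89. Pias4 fell by 0.33 (edgeR adjusted p = 0.0389 without and 0.0253 with the mouse as a block). The group-only call was lost in 10 of the 12 fits that left out a mouse or a library. Among 4 genes of receptor shedding, Rhbdf1 (0.57) and the protease gene Adam17 (0.41) rose and the protease gene Adam10 (-0.46) fell, with edgeR adjusted p of 0.00124, 0.0144 and 0.00776. Rhbdf2 gave 0.02. In group-only fits the Adam17 call was lost without mouse 7, 8 or 10 (edgeR adjusted p = 0.0726, 0.0948 and 0.0512). The Adam10 call was lost without mouse 7 (edgeR adjusted p = 0.0549). With the mouse as a block and all mice, Adam17 and Adam10 were called (edgeR adjusted p = 0.0142 and 0.00206).

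Known STAT3 and acute phase targets moved both ways. Of 23 listed genes that passed the filter 10 rose, 4 fell and 9 did not pass, with a median log2 fold change of 0.81. Junb and Ccl2 among them are also in the immediate early list. DESeq2 called 15 of the 23 and limma-voom 11, and over all genes edgeR called 30.8%. The list was chosen with earlier results of these data known. Serpina3n, a serine protease inhibitor of the acute phase, rose to 298 ± 82.3 CPM in the CD249+ fraction, against 67.6 ± 25.2 CPM in CD249- libraries (mean ± SD of 4, log2 fold change 2.14, edgeR adjusted p = 0.000490). The transcription factor gene Cebpb rose by 1.51 (edgeR adjusted p = 0.000677) and the repressor gene Bcl6 by 1.14 (edgeR adjusted p = 0.000987). Lbp, which encodes lipopolysaccharide binding protein, fell by 0.69 on the log2 scale (edgeR adjusted p = 0.00104). Neither this list nor the others measures signalling, since all values are transcript levels.

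Genes most like 2 of the members across the 8 libraries were named by the root mean square difference of log2 CPM centred on each gene, among 9690 genes whose mean over all 8 libraries reached 10 CPM, which a gene can pass through 1 fraction. Nearest to Lif were Larp6 (0.165), a regulator of collagen mRNA with means of 22.8 CPM in the CD249+ fraction and 4.80 CPM in the CD249- fraction, Sec16b (0.198) and Cpq (0.202), beside a median difference of 1.17 over all candidates. Nearest to Il6ra were Sestd1 (0.152), the pyruvate dehydrogenase kinase gene Pdk4 (0.184) and Sema6c (0.215), beside a median of 0.896. The 6 genes had log2 fold changes of 1.20 to 2.24, and the 8 libraries share 2 fractions and 4 mice. Fold changes near those of Lif and Il6ra follow from choosing genes by likeness over these libraries.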

How the data were processed

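Reads were single-end, from oligo(dT)-primed SMART-Seq V4 cDNA made into Nextera XT libraries, per the labels' protocols. Such libraries do not mark strand and carry no molecular identifiers. The deposited values are expected counts per gene for 25509 genes, and 12.0% of the values are not whole. The submitters' processing notes list RSEM 1.2.28 and STAR 2.6.1, with bcl2fastq 2.20, R 3.6.3 and DESeq2 1.26.0, and state no roles. The notes name GRCh38, a human build, beside mouse identifiers, and no source used here gives the build of the counts. Coordinates and exon lengths are from GENCODE M21 (GRCm38), which holds 99.0% of the identifiers without version and 68.0% with it.

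The 92 spike-in entries, at 0 in every library, were left out and counts were rounded. Genes were filtered by filterByExpr, scaled by TMM and compared by edgeR 4.0.16's two-sided quasi-likelihood test (R 4.3.3), without covariates, Benjamini-Hochberg adjustment over 14524 genes and a threshold of 0.05. Each log2 fold change has CD249+ on top, and SE is the fold change divided by the root of its F statistic. The script was tested on simulated data. DESeq2 1.42.0, limma-voom (limma 3.58.1), other scalings and filters, a mouse block and fits without each mouse or library were alternatives. Among them only the mouse block paired the fractions of a mouse.

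Both fractions of a mouse came from 1 lung, per the labels, and deviations from group means correlated across genes at 0.132 to 0.285 within a mouse and at -0.212 to 0.0515 between mice, so mouse numbers were taken to pair libraries. Members and lists were chosen with earlier results of these data known. Named genes are all members, Enpep and the gate genes, up to 4 genes of each other pathway list with the smallest p, and the 3 genes nearest in pattern to the cytokine and the receptor gene with the smallest p. A few genes that this rule selects are not reported here. Stat3, Jak1, Hbb-bs and the list genes named without that rule were chosen after their values were seen.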

Additional observations from a re-analysis of the deposited data

Results flagged for a closer look

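Lif in the CD249+ library of mouse 2 stood apart, at 21.0 CPM, with the nearest of the other CD249+ libraries at 36.3 CPM and the farthest at 38.5 CPM. The gap made up 0.877 of the range of the 4 libraries. Chance gives such a gap in about 1 of 20 groups, and 20 groups of 4 libraries (10 members in both fractions) were examined. The value still lay above all 4 CD249- libraries. In the same library Il6 and Il11 were also the lowest of the CD249+ fraction, at 21.5 and 0.725 CPM, and the endothelial markers summed highest of that fraction, at 7554 CPM.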

How the results depend on the processing

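The 6 called members kept their direction in all 22 alternatives and their call in every one but the fit of mice 2 and 10 alone and, for Osmr, the fit without mouse 10. Mice 2 and 10 alone gave 668 called genes (570 higher, 98 lower) and 1 called member (1 higher, 0 lower). Mice 7 and 8 alone gave 3028 called genes (1777 higher, 1251 lower) and 7 called members. Both fits held fewer samples than the main fit, and as many as each other. Leaving out a mouse or a library gave 2978 to 4458 called genes, 1777 to 2479 higher and 1201 to 1979 lower, and 5 to 7 called members, with the fewest genes called without mouse 8. Calls of lower genes were 1341 without mouse 7, 1201 without mouse 8 and 1291 without mouse 10. With the replicate block 5298 genes and 8 members were called, and among the members the block changed no call beyond those of Il6 and Il6st. Socs3 turned to -0.0048 with library size only and to -0.098 in mice 2 and 10, and leaving out libraries gave -0.084 to 0.24. Among genes that were not called, Epcam turned to -0.0032 with library size only, -0.12 in limma-voom, -0.11 with the replicate block and -0.72 in mice 7 and 8 (-0.35 to 0.41 with libraries left out). Rhbdf2 turned to -0.076 with library size only and -0.049 in mice 2 and 10 (-0.051 to 0.17 with libraries left out), and Il12rb2 to 0.23 in mice 2 and 10 (-0.69 to 0.18 with libraries left out). The cause of these changes of sign was not tested. Depth limits Il11, at 8 to 79 counts a library.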
